A study of Sinonovacula constricta with 18 samples.

Results

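The siphon of the razor clam Sinonovacula constricta was compared with the mantle by RNA-seq, using 6 of the 18 libraries of a series that covers 6 tissues. The siphon libraries (siphon_1 to siphon_3) and the mantle libraries (mantle_1 to mantle_3) came from healthy adult clams, and each was made from a pool of 3 individuals. No strain, treatment or sex is given, and nothing states whether pools with the same number in different tissues hold the same animals, so the p-values measure the spread among these 3 pools per tissue. Expression was measured on isoform clusters, the transcript models of this series, and the comparison took the 28654 of 32250 clusters that had at least 10 reads summed over the 6 libraries. At the edge of this minimum, 107 clusters had exactly 10 reads and were kept, and 97 clusters had 9 reads and were not. The series was made to follow gene expression across tissues, including that of light-sensing opsins.

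The mantle of a bivalve lines the shell and secretes it, and its edge carries much of the animal's contact with the outside. The siphons are muscular tubes formed from the fused mantle edge, through which a buried clam draws in and expels water, and their tips are sensory. The comparison therefore sets an outgrowth of the mantle edge against the mantle itself. The files pair no cluster with a gene name and hold no sequence, so the tissue labels could not be checked against marker genes, and clusters are described here by level, length and tissue. In bulk tissue, fewer cells of a type and less RNA per cell cannot be told apart.

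The siphon libraries held 14701660 to 17970120 reads and the mantle libraries 10905656 to 12116543 reads. Across the 28654 clusters, log2 read counts scaled to library size (CPM) correlated at 0.662 to 0.748 among siphon libraries, at 0.724 to 0.764 among mantle libraries and at 0.575 to 0.693 between the tissues. Siphon replicate 1 stood apart: it correlated at 0.662 and 0.663 with the other siphon libraries, which correlated at 0.748 with each other, and at 0.575 to 0.604 with the mantle libraries. The siphon libraries correlated more closely with the foot library of the same number (0.891 to 0.906) than with other siphon libraries. The same held for the gill library of the same number (0.768 to 0.824). For libraries of the same number the range was 0.627 to 0.805 with labial palp, 0.567 to 0.731 with intestine and 0.604 to 0.693 with mantle. These correlations describe libraries of 1 transcript set and were not tested. The typical spread between pools of a tissue was wide, with a median biological coefficient of variation of 0.695.

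Fewer than 1 in 100 clusters passed the test between the tissues, and those that did differed at least 4.37-fold. With edgeR's quasi-likelihood test and a Benjamini-Hochberg adjusted p under 0.05, 284 clusters were called, which is 0.991% of those tested. Of these, 178 (0.621%) were higher in siphon and 106 (0.37%) were higher in mantle. Among the called clusters the directions differed in the size of their folds. They also differed in level and precision. The median over the 6 libraries was 12.84 CPM for mantle-higher and 49.87 CPM for siphon-higher clusters, with median standard errors of 0.495 and 0.4. The part of this in the folds that passed the threshold was not tested. Among the 163 siphon-higher clusters with reads in mantle the fold ran from 4.37 to 1310, with a median of 10.6. Among the 96 mantle-higher clusters with reads in siphon it ran from 4.67 to 6520, with a median of 17.1. With the remaining 15 and 10 clusters set at the lower bounds that their zeros allow, the medians were 10.9 and 18.5.

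The calls lay close to the threshold. Their adjusted p ran from 0.0423 to 0.0497 and the first cluster outside had 0.0501, while 3976 clusters (13.9%) had an unadjusted p under 0.05. In all 178 siphon-higher clusters every siphon library lay above every mantle library, and in all 106 mantle-higher clusters the reverse held. Among all tested clusters the libraries were separated in this way for 11.3% with siphon above and for 11% with mantle above. DESeq2 called all 284 in the same direction, among 2881 calls of its own (10.1% of those tested, 5.74% higher in siphon and 4.31% higher in mantle). Limma on log2(FPKM + 0.1) called 280 of the 284 in the same direction (0.977% of those tested) among 877 calls (3.06%). The split of the calls between tissues moved with the scaling, since with library totals alone 69 were siphon-higher and 114 mantle-higher. The limma fit, which differs in test, unit and scaling, gave 363 and 514. Without any 1 of the 6 libraries, siphon replicates 1, 2 and 3 and mantle replicates 1, 2 and 3 alike, edgeR called 0 clusters, with 3217 to 3540 at an unadjusted p under 0.05.

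**Figure D1:**
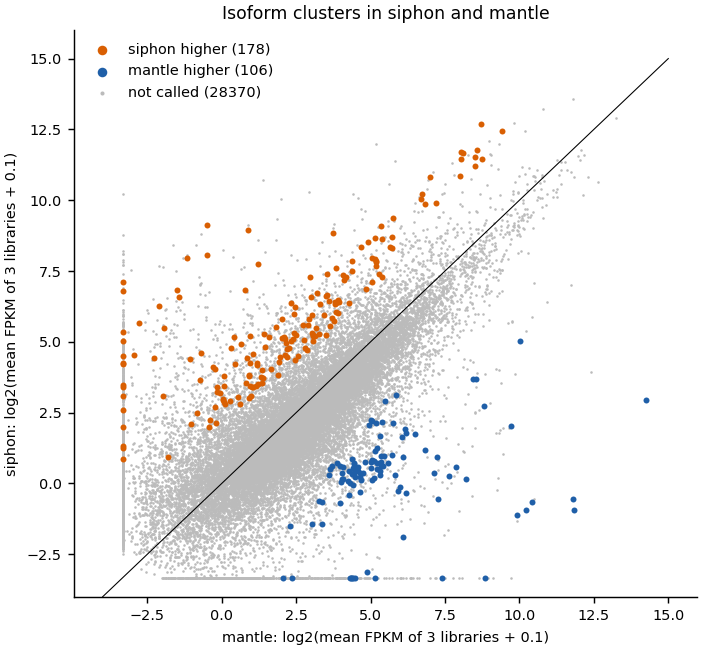
Mean level of each tested cluster in siphon (vertical axis) against mantle (horizontal axis), both as log2 of the mean FPKM of 3 libraries plus 0.1. Orange points are the 178 clusters called higher in siphon, blue points the 106 called higher in mantle, grey points the 28370 not called, and the line marks equal levels; the straight rows of points at the left and lower edges are clusters listed at 0 in one tissue.

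The clusters called in each direction included some of the most abundant transcripts of the tissue in which they were higher. Together the 178 siphon-higher clusters took 8%, 8.68% and 8.26% of the reads in siphon replicates 1, 2 and 3, against 0.936%, 0.747% and 0.86% in mantle replicates 1, 2 and 3. The 106 mantle-higher clusters took 0.0237%, 0.0188% and 0.0188% of the siphon reads, against 1.72%, 3.93% and 3.6% of the mantle reads. The siphon-higher share was even across the siphon pools, and the mantle-higher share was lowest in mantle replicate 1. On the FPKM scale, the authors' read level corrected for transcript length and library total, the median siphon-higher cluster stood at 38 in siphon and 4.27 in mantle. The median mantle-higher cluster stood at 1.25 in siphon and 32.9 in mantle.

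The siphon-higher cluster with the highest level was i3_ICE_sample8a197f|c21843/1/3757.1, at 5848, 7499 and 6257 FPKM in siphon replicates 1, 2 and 3, against 690.3, 270.7 and 288.5 FPKM in mantle replicates 1, 2 and 3. All 3 siphon pools lay far above all 3 mantle pools, and mantle replicate 1 was the highest of the mantle pools. Its log2 fold change was 4.39 ± 0.551 (SE, n = 3 each, edgeR adjusted p = 0.0448). It ranked 5 in siphon and 256 in mantle by mean FPKM, and in foot it reached 9150 ± 1510 FPKM (SD, n = 3). With library totals alone its edgeR adjusted p was 0.0542.

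The second, i1_ICE_sample8a197f|c126617/1/1661.1, had 5855, 5069 and 5645 FPKM in the siphon libraries, against 1021, 462.7 and 573.7 FPKM in the mantle libraries. Again mantle replicate 1 was the highest of its tissue and the tissues did not overlap. The log2 fold change was 3.44 ± 0.412 (SE, n = 3 each, edgeR adjusted p = 0.0439), and the foot level was 7990 ± 1480 FPKM (SD, n = 3). Its adjusted p rose to 0.0565 in edgeR with library totals alone and to 0.0629 in limma with a pseudocount of 0.01.

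The clusters ranked 3 to 12 in this direction repeated the pattern at lower levels. Their FPKM ran from 987.6 to 3612 over the siphon libraries, against 54.91 to 525.6 over the mantle libraries, with folds of 8.58 to 18.9. The steadiest was the third, at 3445, 3552 and 3486 FPKM in siphon and 405.3, 366.6 and 381.4 FPKM in mantle. Its reads and FPKM implied a length of 3973 bases. Of all 12, 10 were higher still in foot than in siphon, and none averaged over 582 FPKM in gill, intestine or labial palp. The strong siphon-higher transcripts were thus present in every mantle pool.

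The mantle-higher clusters behaved differently at the top. The highest, i1_ICE_sample8a197f|c230941/1/1106, was also the most abundant of all clusters in mantle. It had 15.63, 3.37 and 4.04 FPKM in siphon replicates 1, 2 and 3, against 9328, 25316 and 23353 FPKM in mantle replicates 1, 2 and 3. Siphon replicate 1 was the highest siphon pool and mantle replicate 1 the lowest mantle pool, and the tissues did not overlap. The log2 fold change, siphon over mantle, was -11.01 ± 1.17 (SE, n = 3 each, edgeR adjusted p = 0.0423), and the cluster ranked 9198 in siphon. Elsewhere it averaged 308 ± 448 FPKM in labial palp, 21.9 ± 16.5 in gill, 16.7 ± 14.8 in intestine and 11.9 ± 7.81 in foot (SD, n = 3 each).

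The second, i1_ICE_sample8a197f|c126389/1/1869, had 0.96, 0.3 and 0 FPKM in the siphon libraries, which is 8, 2 and 0 reads, against 2418, 5387 and 3084 FPKM in the mantle libraries. It was close to absent in siphon while being one of the strong mantle transcripts. Its log2 fold change was -12.67 ± 1.68 (SE, n = 3 each, edgeR adjusted p = 0.0455).

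Of the mantle-higher clusters ranked 3 to 12, the levels ran from 0 to 38.17 FPKM over the siphon libraries, against 231.4 to 5866 FPKM over the mantle libraries. The third had 1.35, 0 and 0.41 FPKM in siphon and 1431, 5866 and 3469 FPKM in mantle. The fourth, the fifth and the seventh had under 1 FPKM in every siphon library and at least 432.1 FPKM in every mantle library. The ninth had no read in any siphon library. For 8 of the 12, each of the other 5 tissues averaged under 0.5 times the mantle level, whereas none of the 12 leading siphon-higher clusters met that rule for siphon. Over all calls the contrast was smaller, at 24 of 106 mantle-higher clusters (22.6%) and 22 of 178 siphon-higher clusters (12.4%). The other pattern was that of the sixth cluster, which was at 21.43, 38.17 and 36.99 FPKM in siphon and 679.7, 1330 and 1085 FPKM in mantle but reached 8650 ± 4930 FPKM in labial palp (SD, n = 3).

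**Figure D2:**
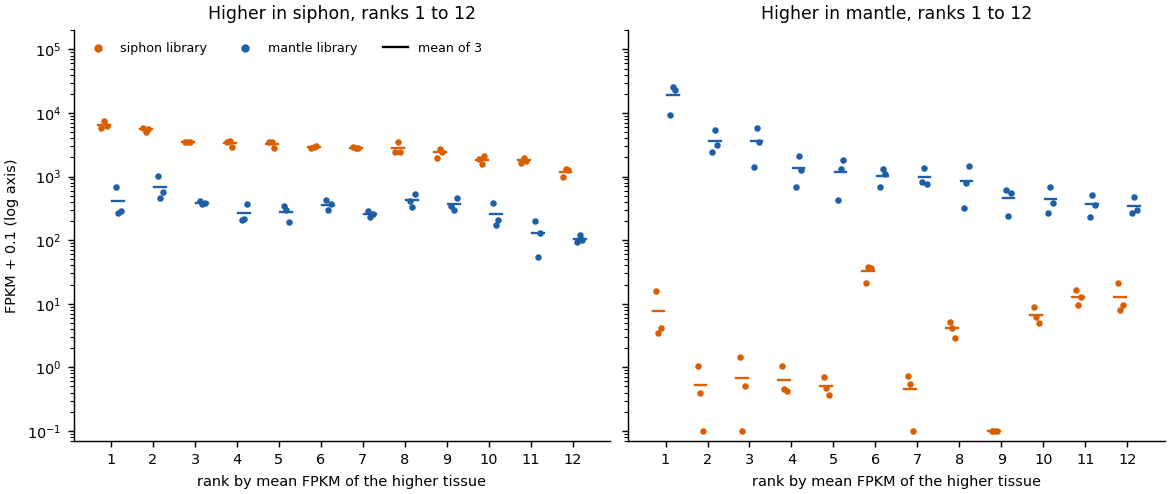
FPKM plus 0.1 on a log axis in each of the 6 libraries for the 12 called clusters with the highest level in each direction; orange points are siphon libraries, blue points mantle libraries, and bars the mean of 3. Siphon-higher clusters keep 54.91 FPKM or more in every mantle library, while 6 of the mantle-higher clusters lie under 2 FPKM in every siphon library.

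The other tissues of the series, which took no part in the test, separated the 2 directions further. Of the 178 siphon-higher clusters, 95 (53.4%) had their highest mean FPKM in foot and 70 (39.3%) in siphon, and 13 in gill, intestine or labial palp. Over all tested clusters foot was the highest tissue for 6.92%, over the clusters with a positive but uncalled difference for 11.8%, and over the uncalled ones at least as large as the smallest called difference for 22.8%. In the same sets siphon was highest for 7.24%, 14.1% and 28.9%. The median siphon-higher cluster was at 38 FPKM in siphon, 37.8 in foot, 6.15 in gill, 5.21 in labial palp, 4.27 in mantle and 1.83 in intestine. Foot, the clam's muscular digging organ, lay within 2-fold of siphon for 126 of the 178 (70.8%), which is no more than the 78.9% of all tested clusters. The share was 78.6% over the clusters with a positive but uncalled difference. Over the uncalled ones at least as large as the smallest called difference it was lower, at 64.5%.

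Within each pool number, the median log2 ratio of foot over siphon across the 178 clusters was 0.00, 0.20 and 0.11 for numbers 1, 2 and 3. Of the 178, 131, 107 and 130 were within 2-fold. No share over all tested clusters is given by number, and over tissue means it was 78.9%, against 70.8% of the 178. These counts are therefore not a trait of the called clusters. With siphon replicate 1 left out of the siphon mean, 97 clusters were highest in foot and 67 in siphon. Siphon and foot libraries of 1 number deviated together from their tissue means, at correlations of 0.727 to 0.809 across clusters. So did siphon and gill libraries of 1 number (0.753 to 0.788), with labial palp at 0.301 to 0.696 and intestine at 0.285 to 0.662. The part of this shared deviation in the foot levels was not tested. Among DESeq2's larger set of siphon-higher calls, foot was the highest tissue for 38.9%.

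The 70 clusters highest in siphon formed the smaller share. Their median level was 39.3, 37.7 and 34.4 FPKM in siphon replicates 1, 2 and 3, against 4.06, 4.04 and 4.18 FPKM in mantle replicates 1, 2 and 3. Foot came next, at 20.7, 14.9 and 17.1 FPKM. Of the 178 siphon-higher clusters, the other 5 tissues were each under 0.5 times the siphon level for 22 and under 0.1 times for 4. With mantle in place of siphon, 24 and 12 of the 106 mantle-higher clusters met these rules. Both sets were chosen on siphon against mantle alone, so these counts do not cover the other transcripts of either tissue.

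Of the 106 mantle-higher clusters, 61 (57.5%) were highest in labial palp, the ciliated organ beside the mouth that sorts food particles, and 34 (32.1%) were highest in mantle. None was highest in foot. Labial palp was the highest tissue for 23.8% of all tested clusters, for 27% of those with a negative but uncalled difference, and for 24.4% of the uncalled ones at least as large as the smallest called difference. In the same 3 sets mantle was highest for 17%, 30.9% and 51.7%, and foot for 6.92%, 1.53% and 1.31%. The median mantle-higher cluster stood at 118 FPKM in labial palp, 64.4 in gill, 58.8 in intestine, 32.9 in mantle, 3.1 in foot and 1.25 in siphon. The foot median was close to the 3.15 FPKM of all tested clusters, and the low siphon level follows from the choice of these clusters. In DESeq2's larger set of mantle-higher calls the labial palp share was 34.1%.

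The clusters highest in labial palp and those highest in mantle differed in level and form. The 61 had medians of 1.5, 1.21 and 1.24 FPKM in siphon replicates 1, 2 and 3, against 23, 29.3 and 31 FPKM in mantle replicates 1, 2 and 3. They had 187, 160 and 211 FPKM in the labial palp libraries, 97.9 to 106 in gill and 71.3 to 90.3 in intestine. Gill averaged above mantle in 57 of the 61 and intestine in 56, with both above mantle in 54. Over all 28654 tested clusters gill averaged above mantle in 18395 and intestine in 16397. The 61 were picked for a tissue other than mantle being highest. The 34 had medians of 0.985, 0.45 and 0.395 FPKM in the siphon libraries, against 54.7, 77.3 and 75.3 FPKM in the mantle libraries, with 4.22 to 10.3 FPKM in labial palp. Leaving out any 1 of the 6 libraries from the means left 60 or 61 clusters highest in labial palp and 33 to 35 highest in mantle.

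Length followed the same division. The median length implied by reads and FPKM was 640 bases for the 61 clusters and 1258 bases for the 34, beside 1362 bases over all tested clusters and 1606 bases over the siphon-higher ones. Of the 61, 50 had an ID with a decimal suffix, and of the 34, 14 did. Such IDs made up 41% of the tested clusters, 69.8% of the mantle-higher and 15.7% of the siphon-higher ones. The implied length of suffixed IDs was a median 31% of the length written in the ID, against 86.6% for the others. At the median, implied length thus fell below the written length for both kinds of ID, by more for suffixed ones. It was not taken as the full length of a transcript. Called clusters had 37 others under the same ID, of which 34 had a difference of the same sign, and 0 IDs were called in both directions.

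**Figure D3:**
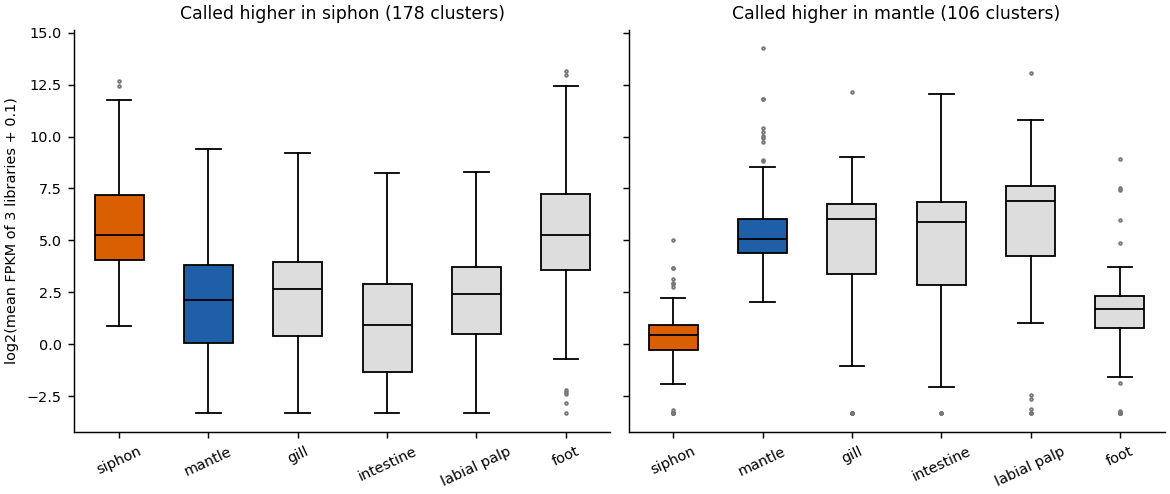
Mean level (log2 of the mean FPKM of 3 libraries plus 0.1) in the 6 tissues of the clusters called higher in siphon (left) and in mantle (right). Boxes span the quartiles with the median as a line, whiskers reach 1.5 times the box, and points lie beyond; the siphon and foot medians at left are 38 and 37.8 FPKM, while labial palp, gill and intestine lie above mantle at right.

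Some clusters were read in every library of one tissue and in none of the other. Siphon-only clusters, with at least 10 reads in each siphon library and 0 in each mantle library, numbered 59, and mantle-only clusters numbered 45. The edgeR test, on the libraries that chose them, called 15 of the siphon-only and 10 of the mantle-only clusters, beside 0.991% of all tested clusters. Against a floor of 3 reads over the empty tissue (0.0879 CPM in mantle, 0.0613 CPM in siphon), siphon-only clusters were at least 10.9-fold to at least 2320-fold higher in siphon, with a median bound of 61.8. Mantle-only clusters were at least 22.9-fold to at least 10900-fold higher in mantle, with a median bound of 277. The siphon libraries were deeper, and with all 6 thinned to the smallest library the counts were 46 siphon-only and 46 mantle-only clusters. Summed over libraries, the median was 266 reads for a siphon-only and 579 reads for a mantle-only cluster.

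The strongest siphon-only cluster, with an implied length of 1481 bases, had 2885, 2244 and 4857 reads in siphon replicates 1, 2 and 3. It had 0 in each mantle library and was at least 2320-fold higher in siphon. It was present in foot at 316 ± 77 FPKM, beside 137 ± 54.8 FPKM in siphon (SD, n = 3 each), and under 1 FPKM on average in the other tissues. The second followed with 2077, 1164 and 3112 siphon reads and 276 ± 311 FPKM in foot. The eighth was unlike these, with 528, 232 and 591 siphon reads and a mean under 0.2 FPKM in each of the other 5 tissues. Over the 59, foot held reads of 56, and 31 had reads in all of gill, intestine, labial palp and foot. The matching shares over all tested clusters are not given. Siphon was the highest tissue for 7.24% of all tested clusters and for 19 of the 59, followed by gill for 14, foot for 12, intestine for 10 and labial palp for 4. The rule that chose the 59 demands siphon reads and bars mantle as the highest tissue, so these counts are a description.

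Among the mantle-only clusters the strongest, with an implied length of 1470 bases, had 0 reads in each siphon library. It had 9841, 4289 and 8745 reads in mantle replicates 1, 2 and 3, at least 10900-fold higher in mantle. Its other levels were uneven, at 212 ± 368 FPKM in intestine and 192 ± 332 FPKM in labial palp (SD, n = 3 each). The twelfth, with 427, 644 and 380 mantle reads, was listed at 0 in all the other 5 tissues. Mantle was the highest tissue for 36 of the 45, beside 17% of all tested clusters. Foot held reads of 23 of them, and the matching share over all tested clusters is not given. The rule that chose the 45 demands mantle reads and bars siphon as the highest tissue, so the 36 is a description. The spread among pools was large here: the second had 4076, 34 and 51 mantle reads and was not called (edgeR adjusted p = 0.273, n = 3 each). Leaving out 1 library relaxes the rule and can only add clusters that it set aside: the counts were then 97 to 147 siphon-only and 81 to 163 mantle-only clusters, with 97 and 163 without siphon replicate 1.

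**Figure D4:**
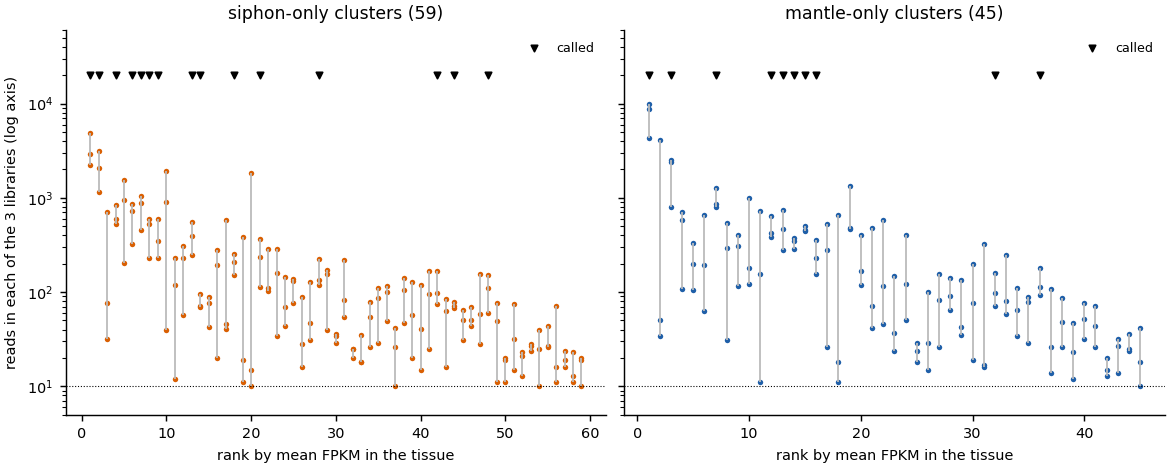
Reads in each of the 3 libraries (log axis) of the 59 siphon-only clusters at left and the 45 mantle-only clusters at right, ordered by mean FPKM, with a grey line from the lowest to the highest pool. The dotted line marks the minimum of 10 reads and triangles mark the called clusters, 15 at left and 10 at right.

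The most abundant clusters of the tissues overlapped in part. Of the 10 with the highest mean FPKM in each tissue 1 was shared (10% of each list), of 50 there were 20 (40%), of 100 there were 50 (50%) and of 500 there were 287 (57.4%). Among the 50 shared in the lists of 100, 40 had a fold under 2, while 11509 of the 28654 tested clusters had a fold over 2. The edgeR test called 0 of the 50 (0.991% of all tested clusters), with 3 at an unadjusted p under 0.05 (13.9% of all tested). DESeq2 called 3 of them (10.1% of all tested) and limma 0 (3.06% of all tested). The shared cluster of the top 10, ranked 3 in siphon and 2 in mantle, had 6629, 9805 and 6597 FPKM in siphon and 8708, 10852 and 9196 FPKM in mantle (log2 fold change 0.06 ± 0.41 SE, n = 3 each, edgeR adjusted p = 0.976). The ranges overlapped, and it was also at 18300 ± 4270 FPKM in intestine and 8140 to 8720 FPKM on average in gill, foot and labial palp.

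The 50 clusters only in the siphon list were mostly higher in siphon, with a median log2 fold change of 3.55. Of these 13 were called siphon-higher, beside 0.621% of all tested clusters. The 50 only in the mantle list had a median of -0.68, and 7 were called mantle-higher, beside 0.37% of all tested clusters. Siphon-list transcripts thus stood further from mantle than mantle-list transcripts did from siphon; these lists were chosen on the same levels, so the medians are a description. The siphon-list clusters took 14% of the siphon reads and 2.26% of the mantle reads, and the mantle-list clusters took 2.23% of the siphon reads and 7.6% of the mantle reads.

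Of the 10 most abundant siphon clusters 2 were called, beside 0.991% of all tested clusters. Ranks 2, 4, 6 and 10 were separated between the tissues by 6.07- to 9.98-fold and had edgeR adjusted p of 0.0612, 0.0657, 0.054 and 0.0697 (n = 3 each). In others the siphon pools differed widely. The most abundant siphon cluster had 2129, 19233 and 15304 FPKM in siphon replicates 1, 2 and 3, against 3783, 4191 and 2693 FPKM in mantle replicates 1, 2 and 3. Siphon replicate 1 lay below every mantle pool, and the difference was not called (log2 fold change 2.19 ± 0.89 SE, n = 3 each, edgeR adjusted p = 0.363). The siphon cluster of rank 8 had 51.01, 6755 and 6357 FPKM in siphon, against 490.4, 443.5 and 590.3 FPKM in mantle, with the same pool low. The siphon cluster of rank 9 was the opposite, at 10271, 740.7 and 1290 FPKM in siphon and 35.75, 73.14 and 0 FPKM in mantle.

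Of the 10 most abundant mantle clusters 1 was called, beside 0.991% of all tested clusters. The cluster of rank 4 had 2.18, 37.25 and 6.36 FPKM in siphon and 2647, 8128 and 5514 FPKM in mantle, fully separated but not called (edgeR adjusted p = 0.087, n = 3 each). In the cluster of rank 3 the siphon pools differed widely and the tissues did not overlap, with 1715, 3066 and 20.88 FPKM in siphon and 6395, 8233 and 4524 FPKM in mantle. Over the 100 most abundant clusters of each tissue, the highest pool was a median 1.61 times the lowest in siphon and 1.78 times in mantle. The highest was over 10 times the lowest for 21 siphon and 11 mantle clusters. Siphon replicate 1 was the lowest pool in 11 of the 21, and in 53 of all 100 siphon clusters.

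**Figure D5:**
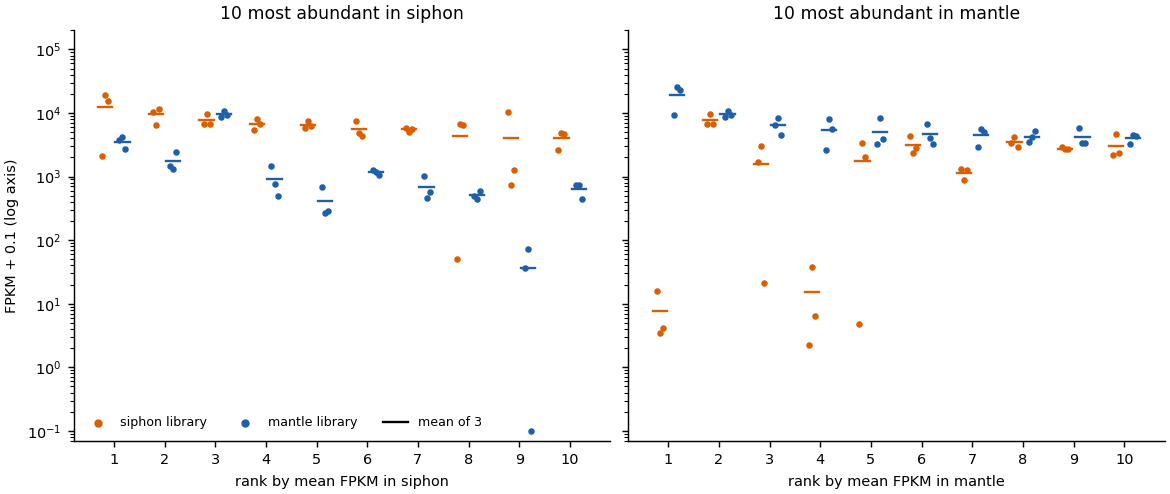
FPKM plus 0.1 on a log axis in each of the 6 libraries for the 10 most abundant clusters of siphon (left) and of mantle (right), with siphon libraries in orange, mantle libraries in blue and bars for the mean of 3. Siphon ranks 1, 8 and 9 show pools that differ over 9-fold, while the cluster ranked 3 in siphon and 2 in mantle is level across all 6 libraries.

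The share of reads in the 20 most counted clusters and the number of clusters detected overlapped between the tissues. The 20 most counted clusters of each library took 11.6%, 16.3% and 14.9% of the reads in siphon and 8.89%, 11.9% and 10.8% in mantle, which is 14.3% ± 2.42 against 10.5% ± 1.53 (SD, n = 3 each, exact two-sided permutation p = 0.2). Siphon replicate 1 lay below mantle replicate 2. Over the 50 most counted clusters the siphon share was higher by 6.18 percentage points and every siphon library lay above every mantle library (exact two-sided permutation p = 0.1, n = 3 each). With all libraries thinned to the depth of the smallest, 26871, 24788 and 25040 clusters had a read in siphon and 25708, 25135 and 25648 in mantle (exact two-sided permutation p = 1, n = 3 each). Siphon replicate 1 had the most of the 6 and the other siphon libraries the fewest. Before thinning, the library numbered 1 listed the fewest clusters at 0 in every tissue of the series, with 5168 in siphon replicate 1. In mantle the margin was small, at 6464 in replicate 1 and 6535 in replicate 3. The smallest p that 3 libraries against 3 can give is 0.1.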

How the data were processed

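The files deposited by the authors give each isoform cluster an estimated count per library, not normalized and often not whole. The FPKM beside it was scaled by the authors to transcript length and to the library's total. The submitters' processing notes name RSEM, Bowtie2 and DESeq 1.10.1 without giving their roles, the reference or the filters. The labels name an Illumina kit and the series text a Pacific Biosciences instrument. The 6 libraries held 10905656 to 17970120 reads. Tissues came from the sample labels.

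Counts were rounded and tested with edgeR 4.0.16 (R 4.3.3, TMM, quasi-likelihood F-test, Benjamini-Hochberg adjustment over the 28654 clusters, threshold 0.05, no replicate block). Standard errors were the log2 fold change divided by the square root of F. Alternatives used limma 3.58.1 (log2 FPKM, pseudocount 0.1) and DESeq2 1.42.0. Folds against a tissue at 0 reads are bounds at 3 reads over its libraries. Implied length is count over FPKM and library total. IDs are printed for the 2 called clusters of each direction with the highest mean FPKM in their higher tissue; ranks 3 to 12, the 10 most abundant and the 10 strongest on/off clusters are given by rank, and the twelfth mantle-only cluster was added after its values were seen. The members and lists were chosen with earlier results of these data known. Pools of 1 number in siphon and mantle did not deviate together from their tissue means (correlations of 0.0115 to 0.024 across clusters), so no pairing was used.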

Additional observations from a re-analysis of the deposited data

How the results depend on the processing

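The total, siphon-higher and mantle-higher calls were 2881, 1646 and 1235 with DESeq2, 877, 363 and 514 with limma at a pseudocount of 0.1, 1030, 430 and 600 at 1, 843, 355 and 488 at 0.01, 598, 381 and 217 with edgeR's filterByExpr, and 1605, 900 and 705 with all 18 libraries in the fit. With library totals alone they were 183, 69 and 114, and the median log2 fold change of all clusters was -0.371. With the replicate number as a block, all 3 counts were 0. In that fit 3367 clusters had an unadjusted p under 0.05, and the lowest edgeR adjusted p was 0.306. The deviations of each siphon library from its tissue mean correlated best with those of the mantle library of its own number, in 3 of 3 cases. These correlations were weak, at 0.0115 to 0.024. Without each library in turn all 3 counts were 0, with lowest edgeR adjusted p of 0.102 to 0.169. Other scaling factors, no filter, robust dispersion and, chosen after seeing the data, summing clusters of 1 ID gave 246 to 384 calls. The 4 printed clusters kept their direction under each alternative fitted for them, which leaves out the summed IDs. Siphon-only clusters numbered 97 to 147 and mantle-only clusters 81 to 163 without each library in turn, and mantle-only clusters 68 at a minimum of 5 reads. The difference in clusters detected, 69.3 more in siphon, was -463.7 at a minimum of 5 reads and -564.3 to 461.7 without each library, below 0 without siphon replicate 1 (-564.3) and without mantle replicate 2 (-111.7). With DESeq2 calls the labial palp share of mantle-higher clusters was 34.09%. Leaving out a library relaxes the on/off rule, and the causes of the other shifts were not tested.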
